A study of Mus musculus with 8 samples.

Results

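Complex I, the NADH:ubiquinone oxidoreductase of the mitochondrial inner membrane, was examined through the Nduf genes, which encode its nuclear subunits and several of the proteins that assemble it. Every non-control array probe whose accession carried a RefSeq gene symbol starting with Nduf was taken, since the array files hold no gene name column. This gave 46 of 20887 named genes (54 of 55681 probes), namely 36 complex I subunits (42 probes), 8 assembly factors with an Ndufaf name (10 probes), and Ndufa4 and Ndufa4l2 (2 probes). The RNA came from frozen brain (a cross section through the whole organ) of 8 mice aged 14 to 16 weeks, 4 homozygous mutants for Pus1 and 4 wild type for it. All were of the C57BL/6J strain, with 5 generations of backcrosses. The labels do not describe the mutation further. Pus1 encodes a pseudouridine synthase that modifies cytosolic and mitochondrial tRNAs. There were 4 arrays, all on 1 slide, each hybridised with cRNA of 1 mutant in one colour and of the wild-type mouse of that number in the other. Such pairs of mice shared their sex, female in pairs 1 and 2 and male in pairs 3 and 4. The mutant was labelled with Cy5 in pairs 1 and 3 and with Cy3 in pairs 2 and 4.

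Complex I feeds electrons from NADH into the respiratory chain and couples their passage to ubiquinone with the pumping of protons out of the matrix. A set of core subunits carries the flavin and the iron-sulfur clusters in the peripheral arm, core subunits encoded by mitochondrial DNA form the membrane arm, and accessory subunits encoded in the nucleus surround both. The complex is built from modules with the help of assembly factors that are not part of the finished enzyme. Its mitochondrial subunits are translated with mitochondrial tRNAs, tRNAs being the molecules that Pus1 modifies. No probe was named here for a mitochondrially encoded subunit, so these were not analysed here.

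All 54 Nduf probes lay well above background in all 8 mice and none was saturated. Across the arrays 56.3% to 67.7% of probes did so in a mouse, and 33307 probes that reached it in at least 3 of 4 mice of either genotype were tested. Pus1 itself fell in the mutant, with normalized log2 levels of 7.09, 7.16, 6.75 and 7.04 in mutant mice 1 to 4, against 9.16, 10.10, 9.36 and 9.79 in wild-type mice 1 to 4 (log2 ratio -2.59 ± 0.38, SD, n = 4 pairs, adjusted p = 0.0364 in limma). It did not pass without pair 1 (adjusted p = 0.891 in limma) or without pair 3 (1). Pus1 was well above background in 3 of 4 mutant mice and in 4 of 4 wild-type mice. The size of its difference moved with the processing, to a log2 ratio of -3.82 by the scanner software. The spread of log2 ratios was widest in pair 2, with an SD over probes of 0.633, against 0.279, 0.395 and 0.329 in pairs 1, 3 and 4.

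The main question was whether transcripts of complex I differed between mutant and wild-type brain. None of the 54 Nduf probes passed at adjusted p under 0.05 in limma, where 0.00901% of all tested probes (3 probes) did. These are levels in bulk tissue, where fewer cells of a type and less RNA per cell cannot be told apart. At an unadjusted p under 0.05 in limma 1 Nduf probe was found, 1.85% of them, against 6.05% of all tested probes. Adjusted p ranged from 0.811 to 0.998. With 1 probe per gene, the brightest, 25 of the 36 subunits had a mean above 0 in the mutant and 11 below. The assembly factors were divided 4 and 4, and of all 15288 tested genes 7911 had a mean above 0. By the ratios fitted without pair 2 the subunits were divided 15 above and 21 below, and with median centring in place of loess 5 were above. The median log2 ratio of mutant over wild type was 0.03 over the subunits and 0.01 over the assembly factors, beside 0.0048 over all tested probes. Means of single subunits ran from -0.16 to 0.15, and those of the assembly factors from -0.20 to 0.08.

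The limma 95% interval of each gene was taken from the fit with a dye term after loess. That fit counts differences between pairs 1 and 3 and pairs 2 and 4 as dye. Any other difference between these pairs is left out of the interval too. The fit also draws each gene's variance toward that of all probes. For Ndufa3 the SD over pairs was 0.51, and the interval used a standard error of 0.13. For all 36 subunits the interval held 0 and lay within 0.5 of 0 on the log2 scale. The lowest bound among them was -0.49 for Ndufa3, 0.712 times the wild-type level, and the highest was 0.46 for Ndufc2, 1.38 times. Of the 8 assembly factors 7 had an interval of that kind, and that of Ndufaf8 reached down to -0.54. Each interval holds the differences compatible with the ratios of that gene in that fit, without adjustment for the number of probes tested. It is not the smallest difference that the adjusted test would have called. An offset added to the signals draws the ratios of dim spots toward 0.

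**Figure D1:**
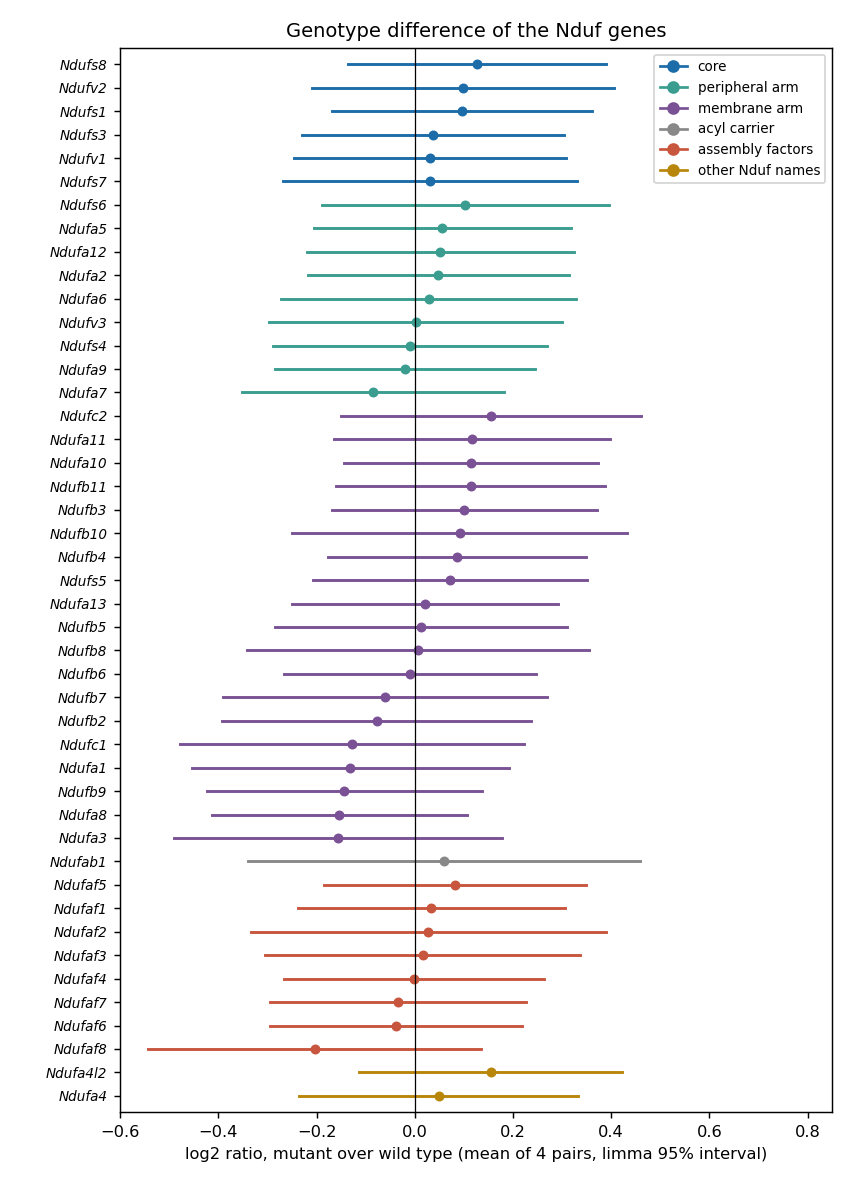
Mean log2 ratio of mutant over wild type (x axis) with its limma 95% interval for 45 Nduf genes, 1 probe per gene, grouped by role and ordered within each role. Every interval crosses 0, from -0.54 at the low end (Ndufaf8) to 0.46 at the high end (Ndufc2).

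The 7 core subunits encoded in the nucleus all had a mean above 0, between 0.03 and 0.13, with none past the test. Leaving out a pair left 5 or 6 of the 7 with a fitted ratio above 0, and median centring in place of loess 1. Ndufv1, which binds NADH and the flavin where electrons enter, had normalized log2 levels of 15.63, 16.24, 15.46 and 15.95 in mutant mice 1 to 4, against 15.62, 16.04, 15.72 and 15.78 in wild-type mice 1 to 4. Its iron-sulfur partner Ndufv2 had 14.25, 14.76, 14.70 and 14.43 in the mutants and 14.42, 14.45, 14.49 and 14.39 in wild type. Ndufs1, the large iron-sulfur subunit next in the electron path, had 14.57, 14.77, 14.71 and 14.74 in the mutants and 14.63, 14.64, 14.61 and 14.52 in wild type. In each of these 3 genes the wild-type values lay within the mutant range or overlapped it, and the log2 ratio was 0.03 ± 0.21, 0.10 ± 0.21 and 0.10 ± 0.12 (SD, n = 4 pairs each).

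The core subunits nearer to ubiquinone also overlapped between the genotypes. Ndufs7, which carries the last iron-sulfur cluster before ubiquinone, had levels of 15.61, 15.51, 15.36 and 15.18 in mutant mice 1 to 4, against 15.40, 15.36, 15.39 and 15.38 in wild-type mice 1 to 4. For Ndufs7 the wild-type mice lay within a far narrower band than the mutants, with SDs of 0.19 in the mutant and 0.02 in wild type. Ndufs3 had 14.88, 14.95, 15.07 and 15.04 in the mutants and 14.72, 15.09, 14.99 and 14.99 in wild type. Ndufs8, an iron-sulfur subunit of the same region, had 12.09, 12.95, 12.23 and 12.75 in the mutants and 12.28, 12.56, 12.26 and 12.41 in wild type, the core gene with the highest mean ratio (0.13 ± 0.28, 95% interval -0.14 to 0.39, adjusted p = 0.875 in limma). Its ratios were -0.19, 0.39, -0.04 and 0.34 in pairs 1 to 4, below 0 in pairs 1 and 3 and above 0 in pairs 2 and 4.

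Of the 9 accessory subunits of the peripheral arm 6 had a mean above 0 and 3 below, with a median of 0.03 and a range of -0.09 to 0.10. The zinc-binding subunit Ndufs6 was at the top of this group, with levels of 15.66, 15.88, 15.43 and 15.45 in mutant mice 1 to 4, against 15.72, 15.41, 15.52 and 15.36 in wild-type mice 1 to 4. At the bottom was Ndufa7, with 14.38, 15.05, 14.63 and 14.67 in the mutants and 14.65, 14.81, 14.97 and 14.63 in wild type. Both sets of mice overlapped for each gene, and the adjusted p was 0.91 for Ndufs6 and 0.917 for Ndufa7 in limma. Ndufs4, a subunit whose loss causes encephalopathy in mice and Leigh syndrome in people, had a mean ratio of -0.01 ± 0.14, and Ndufa9, which holds the joint between the arms, one of -0.02 ± 0.08. With 1 probe per gene, Ndufa5 varied least of all 36 subunits between pairs (0.06 ± 0.06), but its dimmer probe gave 0.11 ± 0.26.

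The 19 measured accessory subunits of the membrane arm held both ends of the range, 11 above and 8 below 0 with a median of 0.01. Ndufc2 had the highest mean of all subunits (0.15 ± 0.20, adjusted p = 0.873 in limma), with levels of 14.96, 15.24, 15.29 and 15.25 in mutant mice 1 to 4, against 15.10, 15.05, 14.98 and 15.01 in wild-type mice 1 to 4. Mutant mice 2, 3 and 4 lay above every wild-type mouse for Ndufc2, and mutant mouse 1 lay below all of them. Ndufa11 had 13.21, 13.79, 13.27 and 13.56 in the mutants and 13.45, 13.37, 13.24 and 13.30 in wild type. Ndufa10 had 12.50, 13.11, 12.48 and 13.22 in the mutants and 12.54, 12.88, 12.41 and 13.02 in wild type. For both of these genes mutant mice 2 and 4 were the highest, with mean ratios of 0.12 ± 0.28 and 0.11 ± 0.12. The X-linked subunit Ndufb11 had 15.76, 15.76, 15.68 and 15.47 in the mutants and 15.61, 15.49, 15.72 and 15.40 in wild type, a mean ratio of 0.11 ± 0.13.

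At the other end Ndufa3 had levels of 15.19, 15.95, 15.14 and 15.46 in mutant mice 1 to 4, against 15.60, 15.46, 15.84 and 15.47 in wild-type mice 1 to 4. The mutants spread over a wider range than wild type for Ndufa3, and its ratios of -0.41, 0.49, -0.70 and -0.01 in pairs 1 to 4 averaged -0.16 ± 0.51. Ndufa8 was below its wild-type partner in every pair after loess, with 13.03, 13.36, 13.03 and 13.27 in the mutants and 13.24, 13.40, 13.23 and 13.43 in wild type, a mean ratio of -0.15 ± 0.08 and adjusted p = 0.853 in limma. In the authors' deposited table its pair 2 ratio was above 0 (0.04). The LYR-motif subunit Ndufb9, which docks the acyl carrier protein, was also below wild type in every pair after loess, with 15.99, 16.12, 15.74 and 16.07 in the mutants and 16.07, 16.18, 16.13 and 16.10 in wild type and a mean ratio of -0.14 ± 0.17. These were the 2 subunits of 36 with a ratio under 0 in all 4 pairs, where 5.75% of all tested probes had one, and 0 subunits had a ratio above 0 in all 4, where 6.05% did. The tally moved with the processing, to 1 below (Ndufa8) and 2 above (Ndufa5 and Ndufb4) with the scanner software's ratio, 1 below (Ndufb9) and 1 above (Ndufb4) in the authors' deposited table, and 0 of either with median centring in place of loess. X-linked Ndufa1 had 14.82, 14.97, 15.22 and 14.83 in the mutants and 15.13, 14.78, 15.33 and 15.14 in wild type. The small subunit Ndufc1 had 15.08, 15.45, 15.31 and 15.13 in the mutants and 15.40, 15.17, 15.44 and 15.46 in wild type. The mean ratio was -0.13 ± 0.23 for Ndufa1 and -0.13 ± 0.29 for Ndufc1, and in both genes pair 2 alone lay above 0. Without pair 2 the ratios fitted with a dye term were -0.25 and -0.28, with no call in limma.

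Ndufab1, the mitochondrial acyl carrier protein that also serves lipoic acid synthesis, had levels of 8.19, 9.08, 8.20 and 8.24 in mutant mice 1 to 4, against 8.43, 8.31, 8.43 and 8.30 in wild-type mice 1 to 4. Mutant mouse 2 stood 0.77 above its partner while the other 3 mutants lay below every wild-type mouse, and the mean ratio was 0.06 ± 0.48. Ndufa4, first named as a complex I subunit and now placed in complex IV, had 14.98, 15.04, 15.22 and 14.66 in the mutants and 14.90, 15.06, 14.86 and 14.87 in wild type (mean ratio 0.05 ± 0.23). Its paralogue Ndufa4l2, which is induced by hypoxia, had 9.78, 9.74, 9.70 and 9.75 in the mutants and 9.67, 9.40, 9.65 and 9.63 in wild type. All 4 mutants lay above all 4 wild-type mice for Ndufa4l2, the 1 Nduf probe of 54 whose groups did not overlap with the mutant higher, where 0.63% of all tested probes did so. Its mean ratio was 0.16 ± 0.12 and it did not pass (adjusted p = 0.858 in limma). In pair 3 the mutant lay below its partner in the authors' deposited table (-0.04) and by the scanner's own ratio (-0.04).

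**Figure D2:**
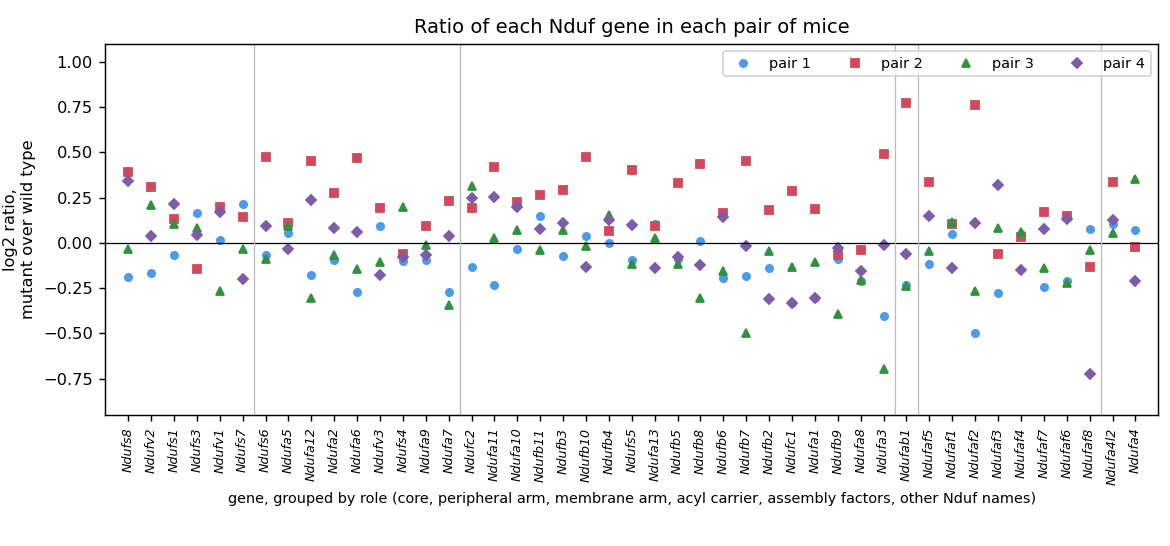
Log2 ratio of mutant over wild type (y axis) of 45 Nduf genes in each of the 4 pairs, with grey lines between the roles named on the x axis. The squares of pair 2 lie above 0 for 31 of 35 subunits, and the points of pair 1 do so for 9.

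The 8 Ndufaf assembly factors had means between -0.20 and 0.08. Ndufaf1, a member of the assembly complex that builds part of the membrane arm, had levels of 11.93, 11.98, 11.92 and 11.83 in mutant mice 1 to 4, against 11.88, 11.87, 11.81 and 11.96 in wild-type mice 1 to 4. Ndufaf2, a paralogue of the subunit Ndufa12 that acts late in assembly, had 11.72, 12.96, 11.42 and 11.99 in the mutants and 12.21, 12.20, 11.69 and 11.88 in wild type. Mutant mouse 2 was the highest and mutant mouse 3 the lowest of all mice for Ndufaf2, whose ratio varied most between pairs of all the Nduf genes (0.03 ± 0.55). Ndufaf3 had 10.80, 11.48, 11.36 and 11.70 in the mutants and 11.08, 11.54, 11.28 and 11.38 in wild type. Its partner Ndufaf4, which acts with it on the peripheral arm, had 11.73, 11.80, 11.90 and 11.69 in the mutants and 11.68, 11.76, 11.84 and 11.83 in wild type. Both genes overlapped between the genotypes, with mean ratios of 0.02 ± 0.25 and -0.0014 ± 0.10, and a dimmer probe of Ndufaf4 gave 0.15.

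Ndufaf5, which hydroxylates an arginine of Ndufs7, had the highest mean of the assembly factors (0.08 ± 0.21, and 0.21 at a dimmer probe), with levels of 9.45, 9.65, 9.40 and 9.72 in mutant mice 1 to 4, against 9.57, 9.31, 9.44 and 9.57 in wild-type mice 1 to 4. Ndufaf6 had 10.07, 10.45, 9.66 and 10.14 in the mutants and 10.28, 10.31, 9.88 and 10.01 in wild type. Ndufaf7, an arginine methyltransferase, had 12.18, 12.28, 12.01 and 12.20 in the mutants and 12.43, 12.11, 12.15 and 12.12 in wild type. Their mean ratios were -0.04 ± 0.21 and -0.03 ± 0.19, and both were below 0 in pairs 1 and 3 and above 0 in pairs 2 and 4. Ndufaf8, a partner of Ndufaf5, had the lowest mean of all 46 genes (-0.20 ± 0.36, adjusted p = 0.852 in limma), with 9.69, 10.14, 10.10 and 9.69 in the mutants and 9.62, 10.27, 10.14 and 10.41 in wild type. That mean rested on pair 4, where the ratio was -0.72 against 0.08, -0.13 and -0.04 in pairs 1 to 3. Without pair 4 the ratio fitted with a dye term was -0.06.

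Assembly factors without an Ndufaf name gave no call either. Of 12 listed, 11 were tested, 5 with a mean above 0 and 6 below, with a median of -0.02, and 0 of 11 had an unadjusted p under 0.05 in limma. The smallest p-values belonged to Tmem126b, a membrane-arm assembly factor, and Tmem70, which serves both ATP synthase and complex I. Tmem126b had levels of 9.07, 10.01, 9.14 and 9.68 in mutant mice 1 to 4, against 9.10, 9.67, 9.02 and 9.31 in wild-type mice 1 to 4 (mean ratio 0.20 ± 0.19, adjusted p = 0.827 in limma). Tmem70 had 11.70, 11.63, 11.92 and 11.76 in the mutants and 11.48, 11.82, 11.32 and 11.53 in wild type (mean ratio 0.22 ± 0.32). For neither gene did the ratio keep its sign in all 4 pairs. Dmac1, a distal membrane arm assembly factor, named after its values were seen, did, with ratios of -0.09, -0.11, -0.08 and -0.08 in pairs 1 to 4. Its mean of -0.09 ± 0.01 had a 95% interval of -0.35 to 0.17 and adjusted p = 0.91 in limma, which draws the small spread of a single gene toward that of all probes.

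A second probe allowed a check within 8 genes. The mean ratios of the 2 probes differed by 0.0503 in the median and by at most 0.31, for Ndufv3, an accessory subunit of the NADH-binding end. Its brighter probe had 15.71, 15.87, 15.58 and 15.41 in the mutants and 15.62, 15.67, 15.69 and 15.58 in wild type (mean ratio 0.0022 ± 0.17). The dimmer probe (A_51_P140211) had 9.82, 10.38, 9.69 and 10.17 in the mutants and 9.85, 9.52, 9.79 and 9.63 in wild type. This was the 1 probe with an unadjusted p under 0.05 (mean ratio 0.32 ± 0.46, adjusted p = 0.811 in limma), with ratios of -0.02, 0.86, -0.10 and 0.53 in pairs 1 to 4. In a fit with no dye term 0 Nduf probes reached that p. Both probes carry the same RefSeq accession, and the files do not place them in the transcript. RefSeq also lists Ndufb1, Ndufb4b and Ndufb4c and 5 pseudogenes, none with a named probe, and RNA of such copies, where expressed, could not be told apart here from that of their parent genes (Ndufb4, Ndufa11, Ndufa12, Ndufab1, Ndufs5 and Ndufs6).

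After loess, mutant mouse 2 stood above the other mice for most subunits, while with median centring in its place the subunit median of pair 2 was -0.47, against 0.23 after loess. To compare mice, each gene's level was set against its own mean over the 8 mice, and the median of these deviations over the 36 subunits was -0.11, 0.25, -0.09 and -0.05 in mutant mice 1 to 4 and 0.0046, -0.02, 0.01 and -0.07 in wild-type mice 1 to 4. Mutant mouse 2 was the highest of the 8 mice for 23 of 36 subunits, where it was the highest for 20.1% of all tested probes and for 25.7% of the 3756 tested probes with a mean log2 level over 13, a brightness that 32 of 36 subunits exceeded. Mutant mouse 1 was the lowest for 10 of 36, against 15.7% of all tested probes. The median deviations averaged -0.0002 ± 0.17 in the mutant and -0.02 ± 0.04 in wild type (SD, n = 4 mice each), and the mutant mice lay on both sides of the wild-type mice. Nuclear subunits of complexes II to V, 37 genes, had -0.08, 0.26, -0.03 and -0.06 in mutant mice 1 to 4 and -0.02, 0.04, -0.01 and -0.02 in wild-type mice 1 to 4. Mutant mouse 2 was the highest of the 8 mice for 20 of these 37 genes, and the Ndufaf genes had -0.06, 0.13, -0.05 and -0.0011 in mutant mice 1 to 4 and 0.02, 0.09, -0.06 and 0.05 in wild-type mice 1 to 4.

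The SD over mutant mice exceeded that over wild-type mice for 29 of 36 subunits, with median SDs of 0.21 in the mutant and 0.12 in wild type, where this held for 54.1% of all tested probes. Without pair 2 it held for 21 of 36 (0.15 in the mutant and 0.11 in wild type), against 55.1% of all tested probes. The SD was also higher in the mutant for 29 of 37 nuclear subunits of complexes II to V. Among tested probes with a mean log2 level over 13 it was so for 61%, and for 59.6% without pair 2. The difference in spread was not tested.

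**Figure D3:**
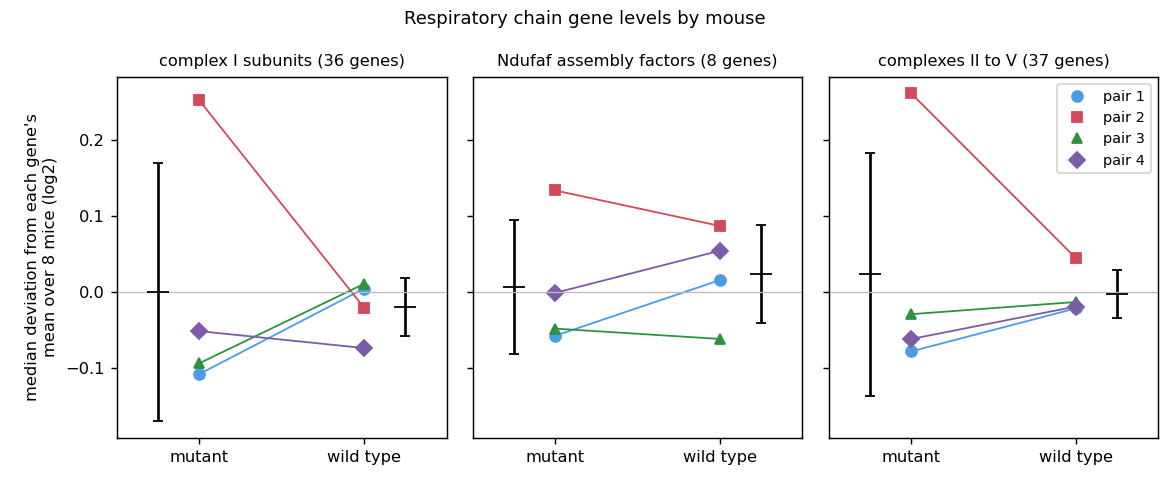
Median deviation of the genes of each list from their own means over the 8 mice (y axis, log2), with mutant mice on the left and wild-type mice on the right of each panel. Lines join the mice of a pair, and bars beside the points give the mean and SD of the 4 mice. Mutant mouse 2 lies at 0.25 in the complex I panel, and the 4 wild-type mice lie between -0.07 and 0.01.

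By pair, the subunit median was -0.10, 0.23, -0.06 and 0.04 in pairs 1 to 4, with 9, 32, 11 and 19 of 36 subunits above 0. For the Ndufaf genes it was -0.16, 0.13, -0.04 and 0.10, with 3, 6, 3 and 5 of 8 above 0. Of all 15288 tested genes, 8264, 7569, 7163 and 7963 were above 0 in pairs 1 to 4. Of the 37 nuclear subunits of complexes II to V, 12, 28, 19 and 14 were. Single ratios beyond 0.5 in size were seen for 2 of 36 subunits and 2 of 8 assembly factors. Markers of brain cell types also moved in pair 2, the pair with the highest subunit median. There 1 of 8 excitatory neuron markers, Slc17a6 (2.05), was above 0 (median -2.89), while 8 of 8 oligodendrocyte and myelin markers were (median 1.64). The 7 inhibitory neuron markers were divided in pair 2, with 3 above 0 and a median of -0.83. In pairs 1, 3 and 4 the medians were 0.29, -0.14 and -0.15 for the excitatory neuron markers and -0.30, -0.63 and -0.18 for the myelin markers. Those of the inhibitory neuron markers were -0.06, -0.21 and -0.04. The mean log2 level of the excitatory neuron markers ran from 9.96 to 12.06 over mutant mice and from 9.69 to 12.71 over wild-type mice. That of the myelin markers ran from 13.88 to 15.40 over mutant mice and from 13.97 to 14.83 over wild-type mice. Of these markers 7 of 8 for excitatory neurons and 8 of 8 for myelin were above background in all mice. The median deviation of the excitatory neuron markers was -1.34 in mutant mouse 2 and 1.90 in wild-type mouse 2. It was -1.26 and -1.52 in mutant and wild-type mouse 1. That of the myelin markers was 1.04 in mutant mouse 2 and -0.54 in wild-type mouse 2. Cerebellar markers had medians above 0 in every pair, 0.53, 0.49, 0.72 and 1.52 in pairs 1 to 4, with 8, 6, 8 and 8 of 8 above 0. Their mean log2 level overlapped between the genotypes, from 10.35 to 14.12 over mutant mice and from 9.65 to 13.43 over wild-type mice. The 5 choroid plexus markers were all above 0 in pair 2 (median 1.71), with medians of 0.01, -0.94 and -0.94 in pairs 1, 3 and 4. The part of these markers in the complex I values was not tested.

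Pairs 1 and 3, with the mutant in Cy5, and pairs 2 and 4, with the mutant in Cy3, were compared. Of the 36 subunits 9 were below 0 in pairs 1 and 3 and above 0 in pairs 2 and 4, as were 4 of the 8 Ndufaf genes, where 12% of all tested probes were. With median centring in place of loess 0 of 36 subunits were. The dye term had an unadjusted p under 0.05 in limma for 4 of 54 Nduf probes (7.41%), against 13% of all tested probes, and at adjusted p under 0.05 for 0 of 54 and 0% of all. Among the genes these were Ndufa3, Ndufa12 and Ndufaf2, besides the dimmer probe of Ndufv3. Dye cannot be told apart from any other difference between these sets of pairs.

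The loess step, which removes dye differences that vary with brightness, changed the values of single pairs. With median centring in its place the subunit medians became 0.37, -0.47, 0.26 and -0.52 in pairs 1 to 4, above 0 in pairs 1 and 3 and below 0 in pairs 2 and 4, and those of the Ndufaf genes 0.17, -0.41, 0.20 and -0.25. The median of the gene means was -0.07 for the subunits, beside -0.04 for all probes. With the scanner software's ratio the subunit medians were -0.08, 0.26, -0.09 and 0.04, and in the authors' deposited table -0.06, 0.30, -0.06 and 0.01, so pair 2 was the highest in both. With median centring 35 of 54 Nduf probes had a dye term at an unadjusted p under 0.05 in limma, where 38.5% of all tested probes did.

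**Figure D4:**
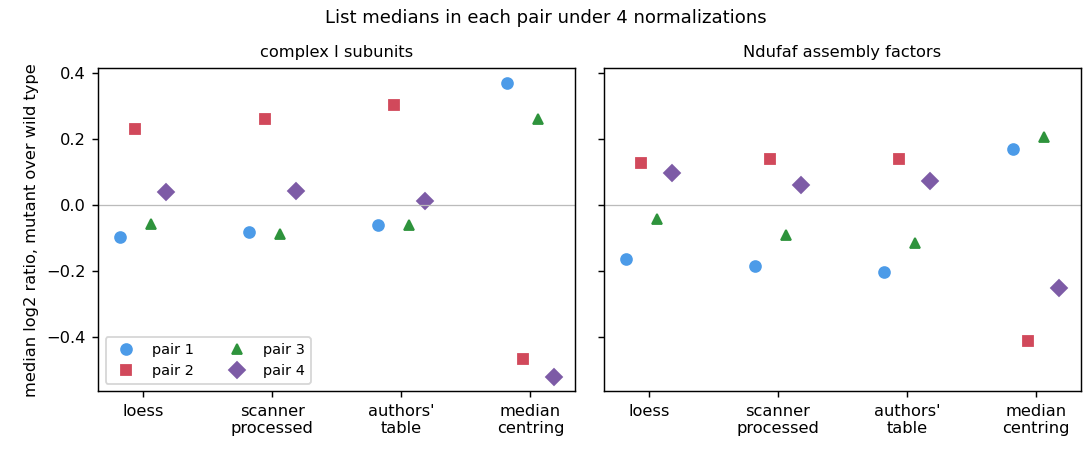
Median log2 ratio of mutant over wild type (y axis) of the 36 complex I subunits and the 8 Ndufaf genes in each pair, under loess, the scanner software's processed signals, the authors' table and median centring. Pair 2 is the highest under the first 3, and median centring places pairs 1 and 3 above 0 and pairs 2 and 4 below it.

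The sexes were compared through pairs 1 and 2 (female) and pairs 3 and 4 (male). No Nduf probe had a genotype difference that differed between the sexes at an unadjusted p under 0.05 in limma, against 2.78% of all tested probes, and 0% of all passed after adjustment. The smallest unadjusted p was 0.147, for Ndufb8, with mean ratios of 0.22 in females and -0.21 in males. For the X-linked subunits the means were -0.06 in females and -0.21 in males for Ndufa1, and 0.21 in females and 0.02 in males for Ndufb11. With 2 pairs a sex and 1 residual degree of freedom, the intervals of these differences are wide.

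The Nduf genes lie on 17 chromosomes, each with its own promoter. NRF1 and the oestrogen-related receptors are known activators of respiratory chain genes, and ATF4 drives a stress response to mitochondrial faults. RefSeq windows (GRCm38.p6) of the 250 bases before the gene start were found for 40 of the 46 genes, 42 windows in all, and searched on both strands for 8 motifs. An NRF1-type motif, GCGCNTGCG, which was shortened by 1 letter after a first search of these windows, was present in 10 of 42 windows (23.8%), against 5.19% of all 32851 RefSeq windows of the same length, and overlapped none of the other motifs there. The receptor site AAGGTCA was in 3 (7.14%, all windows 4.08%) and the ATF4-type element TGATGNAAN in 0 (all windows 3.44%). The cAMP element TGACGTCA was in 3 (7.14%, all windows 1.55%) and the YY1-type AANATGGCG in 2 (4.76%, all windows 1.12%). The ETS-type CCGGAAGT was in 0 (all windows 2.88%), the CCAAT box in 14 (33.3%, all windows 33.9%) and the GC box GGGCGG in 19 (45.2%, all windows 32.7%). A match is a run of letters and not a shown binding site. The stretches around the NRF1-type match on either strand, in capitals, are printed for the 9 genes that hold one, 1 window each, 5′ to 3′ on the gene's strand, chosen for printing after the counts were seen.
Ndufa11 (chr17:56717677-56717736, + strand): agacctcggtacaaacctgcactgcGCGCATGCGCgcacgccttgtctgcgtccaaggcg
Ndufa12 (chr10:94198890-94198948, + strand): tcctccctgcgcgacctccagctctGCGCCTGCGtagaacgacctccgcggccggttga
Ndufa5 (chr6:24527691-24527740, - strand): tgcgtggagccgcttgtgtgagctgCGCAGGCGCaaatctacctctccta
Ndufa8 (chr2:36049339-36049393, - strand): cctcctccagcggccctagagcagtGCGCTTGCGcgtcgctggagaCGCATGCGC
Ndufaf4 (chr4:24897945-24898004, + strand): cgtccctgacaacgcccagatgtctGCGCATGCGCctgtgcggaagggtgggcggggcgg
Ndufb10 (chr17:24724424-24724474, - strand): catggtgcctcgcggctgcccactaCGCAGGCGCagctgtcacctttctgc
Ndufb4 (chr16:37654525-37654583, - strand): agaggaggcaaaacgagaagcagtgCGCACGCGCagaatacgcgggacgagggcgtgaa
Ndufs5 (chr4:123718250-123718308, - strand): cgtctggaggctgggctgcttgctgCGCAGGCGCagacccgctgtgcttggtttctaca
Ndufs6 (chr13:73328483-73328523, - strand): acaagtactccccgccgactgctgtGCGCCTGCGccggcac

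The genotype ratios of these 9 genes ran from -0.15 (Ndufa8) to 0.12 (Ndufa11), and none passed the test. Ndufs5, a membrane-arm subunit with the motif and the receptor site, had levels of 15.44, 15.91, 15.45 and 15.53 in mutant mice 1 to 4, against 15.54, 15.50, 15.57 and 15.43 in wild-type mice 1 to 4 (mean ratio 0.07 ± 0.24). Ndufb4, which also holds both, had 15.25, 15.55, 15.15 and 15.19 in the mutants and 15.25, 15.48, 14.99 and 15.07 in wild type (mean ratio 0.09 ± 0.07). Mutant mouse 2 was the highest of the 8 mice for Ndufs5 and for Ndufb4.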

How the data were processed

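Agilent Feature Extraction 10.7.3.1 read the scans, per the submitters' processing notes. Deposited intensity values were spot and local background medians of each channel, uncorrected, per the file headers. In the deposited log10 ratio the authors' software set processed Cy5 over processed Cy3, after dye normalization within the array. The deposited spot marks (other values, 0 or 1) are per the file headers. The authors' deposited log2 table has no stated scale. Each column followed quantile-normalized log2 processed signals centred per probe (r above 0.999 for brighter probes), with column medians of -0.0271, 0.0199, -0.0142, -0.00238 in mutants 1 to 4 and -0.0496, 0.0364, -0.00529, 0.0345 in wild type, and dim probes were not compared.

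Here medians were corrected by normexp (offset 50), normalized by loess with control spots at weight 0, freed of outlier spots and averaged per probe, with levels after Aquantile scaling. Accessions named 27509 of 55681 probes through RefSeq GRCm38.p6, and the headers name an older build. Each probe's 4 ratios entered limma 3.58.1 (R 4.3.3, data.table, version 1.17.8) with a dye term and Benjamini-Hochberg adjustment over 33307 probes, tested on simulated data. Ratios taken within an array hold the pair as a block. With a pair left out, the dye term gives each dye orientation equal weight, so the fitted ratio of a gene differs from the plain mean of its remaining ratios. Deviations of same-numbered mice correlated at r = 0.791, 0.314, 0.494, 0.74 in pairs 1 to 4, against at most 0.388, 0.69, 0.388, 0.69 with another number, so pair 2 correlated best with another number, and channels of 1 array share every spot. The number of arrays limits the precision. Named genes were core subunits, Ndufaf genes, Ndufa4, Ndufa4l2 and the 6 highest and lowest subunits, with the other-name assembly factors of lowest p. Other genes with values (such as Ndufs4, Ndufa9, Ndufa5, Ndufab1, Ndufv3, Ndufs5, Ndufb4 and Ndufb8) were chosen after their values were seen. Some values of the core subunits are not reported here. Members, lists and motifs were chosen with earlier results of these data known. Alternatives were other ratios, centring, offsets, filters, priors, channel fits and leaving out each pair.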

Additional observations from a re-analysis of the deposited data

Results flagged for a closer look

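Among the 46 Nduf genes and Pus1, 141 groups of 4 values (mutant levels, wild-type levels and pair ratios) were examined. In 9 of them (6.4%) a value's gap to the nearest other, divided by the range of the 4 values, exceeded Dixon's 95% critical value, where chance marks about 1 in 20. A small gap can pass where the other values lie close together. Mutant mouse 2 stood above the other 3 mutant mice at Ndufa6 (14.41 against 14.11 to 14.13), Ndufab1 (9.08 against 8.19 to 8.24) and Ndufb8 (16.44 against 15.72 to 15.82), in normalized log2 levels. Mutant mouse 1 was low at Ndufc2 (14.96 against 15.24 to 15.29), and wild-type mouse 1 was high at Ndufaf7 (12.43 against 12.11 to 12.15). In log2 ratios, pair 2 was high at Ndufb5 (0.33 against -0.12 to -0.08), pair 3 was low at Ndufb9 (-0.39 against -0.09 to -0.03) and high at Ndufs4 (0.20 against -0.10 to -0.06), and pair 4 was low at Ndufaf4 (-0.15 against 0.03 to 0.06).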

How the results depend on the processing

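Under all 14 alternatives 0 of 54 Nduf probes passed at adjusted p under 0.05 in limma, and 0 to 2 had an unadjusted p under 0.05. The subunit median lay between -0.07 and 0.09 and the Ndufaf median between -0.04 and 0.02, each within 1 SD of the pair medians of the main value. Without replicate 1 to 4 the subunit median was 0.04, -0.01, 0.04 and 0.09. With the scanner's own ratio, with the authors' table and with median centring 43, 41 and 22 of the 46 genes kept their sign. The count over all probes, 3, became 0 with the scanner's processed ratio, the authors' table and an offset of 0, 1 in separate channels with no replicate block, 10 with the array as a random replicate block, and 0 to 933 when a replicate was left out (0, 10, 0 and 933 without replicates 1 to 4). Pus1 kept its sign but had adjusted p = 0.199 with the scanner software's ratio (log2 -3.82), 0.0822 in the authors' table (-3.83), 0.0913 with an offset of 0 (-3.26) and 0.0587 with no replicate block (-2.59), and ranged from -2.73 to -2.46 without a replicate, with no call without replicate 1 (0.891) or 3 (1). It was not tested with the filter on all 8 mice. The dye term passed at 0 probes, but at 3881 with median centring. The cause was not tested. Pairing changed no call on an Nduf gene. Chosen after seeing the data, the count of subunits with a higher SD in the mutant, 29 of 36, was 21 without replicate 2, and that of the Ndufaf genes 5 of 8 in both.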
